A study of Mus musculus with 8 samples.

Results

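The Gimap genes form a single cluster on mouse chromosome 6, and all 8 members named here (Gimap1, Gimap3, Gimap4, Gimap5, Gimap6, Gimap7, Gimap8 and Gimap9) were measured, out of 51815 annotated genes with a testable promoter. The locus was taken as the 8 genes, the sequence between them and 10 kb beyond the outermost, which is chr6:48637234-48780851 in the GRCm38 (mm10) build, or 143.618 kb. Of its 1305 reference CpGs, 1221 (93.6%) had 5 or more reads in every file, out of 18714703 such CpGs in the genome. Whole-genome bisulfite sequencing was applied to spleen lymphocytes of the inbred strain C57BL/6J at 6 to 8 weeks of age, with cells pooled over animals. The 4 groups were female and male CD43- B cells, a resting population, and female and male naive CD4+ T cells sorted as CD62Lhi, CD44lo and CD25-. Each group had 2 samples but 1 deposited file, and the labels do not say whether that file merges the samples. The comparison is therefore 2 B cell files with 2 T cell files. Its p-values rest only on spread between these files, partly shared across the genome, and for 1 kb windows on a genome-wide average. Bisulfite reads 5-methylcytosine and 5-hydroxymethylcytosine alike. Wherever a pair of levels is given below for a cell type, the female file comes first and the male file second.

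GIMAP proteins are small GTPases of lymphocytes that sit on intracellular membranes and are known for their part in lymphocyte survival and homeostasis. Loss of Gimap5 causes severe lymphopenia in rodents, and Gimap1 is required for mature B and T lymphocytes. In mammalian DNA, CpGs at active gene starts are usually unmethylated while those in gene bodies and between genes are mostly methylated, and a broad unmethylated tract at a gene often marks regulatory DNA in use in that cell type.

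Stretches where neighbouring CpGs differed together between the cell types are shown first. They are the 300 bases or fewer with the most CpGs in the 4 runs with the most neighbouring CpGs that differed by 30 percentage points or more in both sexes. All are given 5′ to 3′ on the plus strand of GRCm38, and capitals mark the measured CpGs of the run. The first lies in an intron of Gimap3 (chr6:48769940-48770228), where B cells were methylated and T cells were not. The second lies between genes, beyond the start of Gimap3 (chr6:48775891-48776173), and has the opposite pattern. The fourth tied at 7 CpGs with a run past Gimap7 (chr6:48727486-48728112) and is shown as the first of the pair along the chromosome. That other run lies outside the members but within the span of a read-through transcript, Gm28053. The third is coding sequence of Gimap7 (chr6:48723635-48723911), and the fourth spans the start of the coding sequence of Gimap4 and the intron after it (chr6:48686821-48687040).
Gimap3 intron, higher in B: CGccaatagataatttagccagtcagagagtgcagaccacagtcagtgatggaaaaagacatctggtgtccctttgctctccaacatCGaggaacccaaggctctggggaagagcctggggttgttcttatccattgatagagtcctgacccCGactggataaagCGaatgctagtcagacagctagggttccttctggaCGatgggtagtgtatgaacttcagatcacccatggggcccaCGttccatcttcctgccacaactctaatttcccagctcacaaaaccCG
Beyond the Gimap3 start, lower in B: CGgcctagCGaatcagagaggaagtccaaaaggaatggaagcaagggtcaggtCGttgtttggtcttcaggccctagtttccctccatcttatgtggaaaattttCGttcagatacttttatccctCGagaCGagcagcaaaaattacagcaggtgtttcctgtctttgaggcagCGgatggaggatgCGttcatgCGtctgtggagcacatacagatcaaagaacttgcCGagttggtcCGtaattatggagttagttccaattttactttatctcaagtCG
Gimap7 coding exon, higher in B: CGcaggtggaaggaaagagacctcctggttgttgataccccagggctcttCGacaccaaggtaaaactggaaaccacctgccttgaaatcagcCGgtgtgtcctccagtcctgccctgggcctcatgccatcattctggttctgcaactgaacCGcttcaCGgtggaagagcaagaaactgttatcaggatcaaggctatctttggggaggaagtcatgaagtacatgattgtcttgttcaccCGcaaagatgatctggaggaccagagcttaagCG
Gimap4 exon and intron, higher in B: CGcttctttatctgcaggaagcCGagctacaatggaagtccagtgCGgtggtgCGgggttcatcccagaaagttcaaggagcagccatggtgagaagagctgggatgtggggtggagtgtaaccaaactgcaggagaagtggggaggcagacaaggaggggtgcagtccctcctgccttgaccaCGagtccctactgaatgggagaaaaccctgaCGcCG

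For contrast, the 250 bases before the RefSeq start of 2 members are given in the same way, both on the plus strand, with every CpG in capitals. With the 50 bases after the start included, the 4 CpGs of Gimap5 (chr6:48745947-48746196) measured 0% in every file over 64 to 93 reads, which allows a level of up to 3.23% to 4.69%. The 4 CpGs of Gimap4 (chr6:48684328-48684577) measured 19.6% and 34.5% in B cells and 2.33% and 18.8% in T cells. These were chosen after their values were seen.
Gimap5 promoter: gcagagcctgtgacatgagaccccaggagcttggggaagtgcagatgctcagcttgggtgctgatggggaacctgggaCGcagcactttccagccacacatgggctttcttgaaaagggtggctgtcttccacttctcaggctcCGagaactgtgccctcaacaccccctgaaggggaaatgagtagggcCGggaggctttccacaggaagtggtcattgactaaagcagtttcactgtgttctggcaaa
Gimap4 promoter: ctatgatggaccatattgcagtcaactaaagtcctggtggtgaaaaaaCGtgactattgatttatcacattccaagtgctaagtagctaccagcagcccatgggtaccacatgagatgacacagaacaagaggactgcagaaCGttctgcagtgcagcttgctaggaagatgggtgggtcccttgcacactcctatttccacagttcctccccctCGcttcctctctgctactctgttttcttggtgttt

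Over the whole locus, DNA of B cells was more methylated than that of T cells, and the surrounding chromosome was not. The methylation level of the locus, as methylated over all reads at its CpGs, was 70.2% in female B cells, 68.3% in male B cells, 60.6% in female T cells and 60.3% in male T cells. The B cell files lay above both T cell files by 9.58 percentage points in females and 8.04 in males. In the 250 kb on either side, the levels ran from 77.4% to 78.5% and the differences were 0.463 points in females and -1.03 in males. The locus had a mean depth of 13.8 reads per CpG in female B cells, 15.8 in male B cells, 18.3 in female T cells and 17.8 in male T cells, against 14.6 to 17.7 over the autosomes. With 2 files against 2, an exact permutation test cannot give a two-sided p under 0.33, so no p is attached to these levels.

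The difference was carried by part of the locus. Of 128 windows of 1 kb that could be tested, 35 (27.3%) were called, meaning an adjusted p under 0.05 and a difference of at least 20 points between the means of the B and T cell files. Of these, 30 were higher in B cells and 5 were lower. Over the genome, 2.08% of windows were called, 1.16% as higher in B cells and 0.913% as lower. In the 250 kb on either side of the locus, 9 of 460 windows (1.96%) were called, 3 higher and 6 lower. Among the 30 windows higher in B cells, the mean level was 71.6% in female B cells, 71.0% in male B cells, 33.2% in female T cells and 33.9% in male T cells. These windows were called by their difference, so the means describe them and carry no test. The tests are quasi-binomial fits with cell type and sex as terms and limma's shared dispersion, and the called windows had adjusted p-values of 0.00238 or less. For windows this dispersion was a genome-wide average of 1.31, not each window's own spread, so very small p-values overstate certainty.

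**Figure D1:**
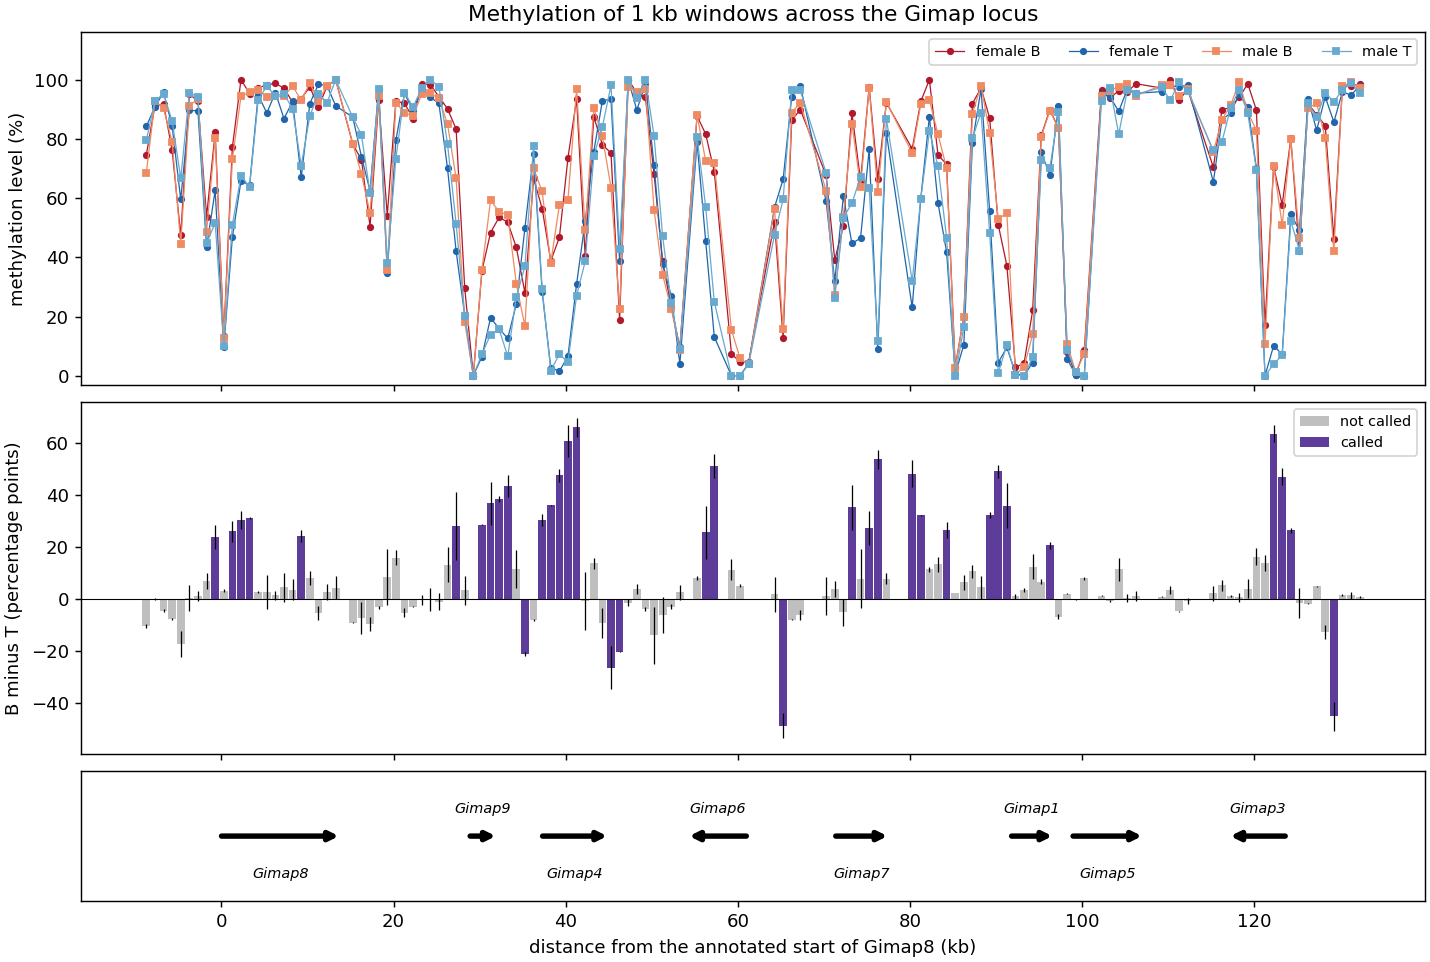
The upper panel plots the methylation level (%) of each tested 1 kb window in the 4 files against distance from the annotated start of Gimap8 in kb, and the middle panel plots the mean B minus T difference in percentage points, with black lines joining the female and male differences and called windows in purple. Arrows in the lower panel give the 8 genes and their direction of transcription. The 30 called windows above 0 are spread along the locus with none inside Gimap5. Of the 5 below 0 all but 1 lie between genes, as do 66 of the 128 tested when the read-through Gm28053 is not counted.

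More CpGs were low in T cells than in B cells. A level of 20% or less was seen at 224 CpGs in both B cell files (18.3%) and at 324 in both T cell files (26.5%), with 194 low in all 4 files, 130 in the T cell files only and 30 in the B cell files only. Over the genome the corresponding shares were 9.28% and 9.32%. Counted singly, 155 CpGs of the locus (12.7%) were at least 30 points higher in B cells in both sexes and 31 (2.54%) at least 30 points lower, where the genome gave 0.895% and 0.723%.

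Going from promoters to gene bodies, the members fell into different patterns. A promoter is here the annotated start with 1 kb to either side. Of 8 member promoters, 3 were called, those of Gimap3, Gimap4 and Gimap8, all higher in B cells, and 1.59% of all promoters tested were called, 0.965% as higher in B cells and 0.623% as lower. Promoter levels of 7 members were higher in B cells in both sexes, which held for 31% of all promoters, and in 5 of them both B cell files lay above both T cell files, as in 23.1% of all promoters. The median B minus T difference was 5.45 points over the 8 members and 0.108 over all promoters.

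The largest promoter difference was that of Gimap3, a GTPase reported to act with Bcl-2 family proteins in thymocyte survival. Its level was 68.3% and 63.0% in B cells, while T cells had 22.2% and 22.8%. The files did not overlap, which largely follows from the call. The difference was 43.1 points (adjusted p = 1.57e-05 by the quasi-binomial fit with limma).
Gimap4, which has been linked to apoptosis in T cells, measured 52.4% and 54.5% in B cells, while T cells had 25.9% and 26.2%. The B cell mean was higher by 27.4 points (adjusted p = 0.000729 by the same fit). Gimap8, a member with several GTPase domains, measured 68.5% and 58.8% in B cells and 40.2% and 39.6% in T cells. Its difference was 23.7 points (adjusted p = 0.0025 by the same fit). This call rests on CpGs 0.5 to 1 kb from the start, because with 500 bases to either side the Gimap8 promoter differed by -1.73 points. It was also lost with limma on log2 ratios (adjusted p = 0.09) and with 10 or more reads per CpG (15.4 points). Leaving out the female B, female T or male T file lost it as well, and leaving out the male T file lost the call of Gimap4 (27.5 points). These fits with a file left out had no sex term, so the file and the term changed together. In a window of 250 bases before to 50 after the start, Gimap4 differed by 12.9 points and was not called (adjusted p = 0.422 by the quasi-binomial fit). Gimap3 had too few CpGs there to be tested.

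The other 5 promoters were not called. The promoter of Gimap1, required in mature lymphocytes, was 8.82% and 10.1% in B cells and 1.83% and 1.44% in T cells. That difference of 7.84 points passed the test (adjusted p = 0.00868 by the quasi-binomial fit) but not the threshold of 20 points. With any single file left out, in fits without a sex term, it no longer passed (7.19 to 8.50 points). Gimap5, whose loss causes lymphopenia, measured 2.21%, 3.86%, 1.77% and 3.60% in female B, male B, female T and male T cells, and Gimap6, reported to bind an autophagy protein, measured between 3.11% and 4.64%. Both were low in every file. The Gimap9 promoter ran from 11.7% to 19.4% with overlapping cell types. For Gimap7 the levels were 42.8% and 45.0% in B cells and 51.3% and 42.1% in T cells, so the files overlapped and the sexes differed in sign. The Gimap7 promoter shares its 14 CpGs with that of Gm28053, a read-through transcript, and their values are the same.

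Bodies of the genes were taken from 1 kb past the start to the gene end. Both B cell files were above both T cell files at 7 of 8 members, and at 29% of all gene bodies. Of the 8, 3 were called, all higher in B cells, while 0.824% of all gene bodies were called and 0.568% were called as higher in B cells. The called members were Gimap7, Gimap4 and Gimap9. The median difference was 16.2 points over the members and 0.132 over all gene bodies.

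Gimap7 had the largest gene body difference, with 77.5% and 72.3% in B cells but 41.3% and 43.4% in T cells (32.5 points, adjusted p = 8.35e-05 by the quasi-binomial fit with limma). Gimap4 measured 69.4% and 72.0% in B cells and 40.9% and 38.3% in T cells (31.1 points, adjusted p = 6.21e-05 by the same fit). Gimap9 measured 40.6% and 41.6% in B cells but 10.8% and 10.7% in T cells (30.3 points, adjusted p = 9.74e-05 by the same fit). In all 3 the files of one cell type agreed more closely than the cell types did, which largely follows from their being called. By limma on log2 ratios of the reads, 0 of the 8 bodies was called, since the adjusted p-values of these 3 came to 0.0667 to 0.0745. Fisher's exact test in each sex called 3, but it takes single reads as its units and leaves out spread between files.
Of the rest, 4 passed the test but not the threshold. Among all gene bodies, 27.9% had an unadjusted p under 0.05 by the quasi-binomial fit, and the share that passed after adjustment was not counted. The body of Gimap3 measured 77.1% and 77.3% in B cells and 61.3% and 58.6% in T cells, and that of Gimap6 64.5% and 65.1% in B cells but 48.1% and 51.4% in T cells. Gimap8 was nearly fully methylated in B cells at 94.4% and 94.2%, and lower in T cells at 79.3% and 79.7%. Gimap1 measured 64.2% and 57.8% in B cells and 51.7% and 53.0% in T cells (adjusted p = 0.0298 by the same fit). That pass was lost with no sex term in the fit. It was also lost without the female B file (5.44 points), the female T file or the male T file, again with no sex term. By limma on log2 ratios none of these 4 passed. Gimap5 stood apart from the others, since its body measured 82.7% and 76.1% in B cells and 79.9% and 77.9% in T cells and the cell types overlapped.

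**Figure D2:**
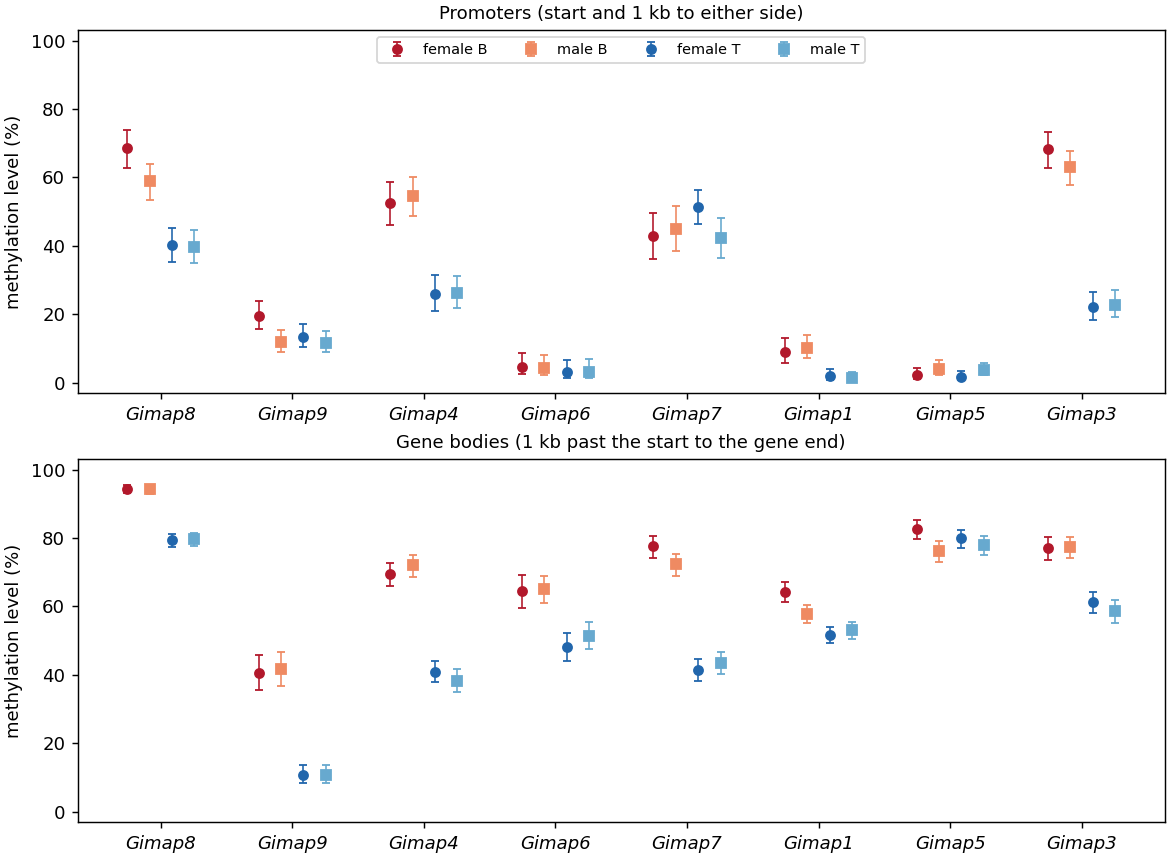
Each point is the methylation level (%) of a member's promoter (upper panel) or gene body (lower panel) in 1 of the 4 files, ordered along the chromosome, with bars for the 95% Wilson interval, which covers counting error only. B cell points lie above both T cell points at 5 promoters (23.1% of all promoters) and 7 gene bodies (29% of all gene bodies), and the widest interval is 13.3 points for promoters and 10.1 for bodies.

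Right after their starts, 4 of the 8 members (Gimap9, Gimap6, Gimap1 and Gimap5) were close to unmethylated in both cell types, and those of Gimap9, Gimap6 and Gimap1 parted farther from the start. In the 500 bases after the start, the levels of Gimap9 and Gimap1 were 0% in every file (which allows up to 4.69% and 3.12%), and no file of Gimap6 was above 1.20% or of Gimap5 above 1.96%. Gimap8 was also low in this stretch, at 14.6% and 16.4% in B cells and 13.5% and 9.26% in T cells over 3 CpGs, and from 500 to 1000 bases past its start B cells measured 65.9% and 53.6% while T cells had 6.82% and 19.4%. From 1 to 2 kb after the start, Gimap9 measured 39.7% and 38.3% in B cells but 7.68% and 7.99% in T cells. The tract before Gimap1, from 2 to 1 kb before its start, measured 56.0% and 58.7% in B cells and 8.80% and 5.00% in T cells. Gimap6 was low in all files to 2 kb past the start, and only from 2 to 3 kb did B cells measure 30% and 46.4%, while T cells had 0% and 0% (up to 5.77%), over 3 CpGs. Gimap5 measured 9.91% and 7.87% in B cells and 0% and 0% in T cells (up to 2.11%) from 1 to 2 kb past the start, and from 2 to 3 kb its files overlapped, at 91.3% and 82.4% in B cells and 90.5% and 90.9% in T cells.

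Gimap4 and Gimap3 were different, because the bases right after their starts were partly methylated in B cells. The 500 bases after the start of Gimap4 measured 51.8% and 45.2% in B cells and 1.72% and 4.41% in T cells, over 4 CpGs. For Gimap3 these values were 48.5% and 44.8% in B cells and 0% and 0% in T cells, over 2 CpGs and 23 to 26 T cell reads (up to 13.0%). From 1 to 2 kb past the start, Gimap3 measured 72.6% and 69.7% in B cells but 7.44% and 2.26% in T cells. At Gimap7 the 2 CpGs of the RefSeq promoter measured 0% to 3.03%. The values of 0% there, over 27 reads in male B and 37 in male T cells, allow up to 11.1%. The annotated start of Gimap7 had no low 500 bases after it, with 43.2% and 32.3% in B cells and 39.6% and 31.6% in T cells there. The bins hold few CpGs, and no test was run on them.

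**Figure D3:**
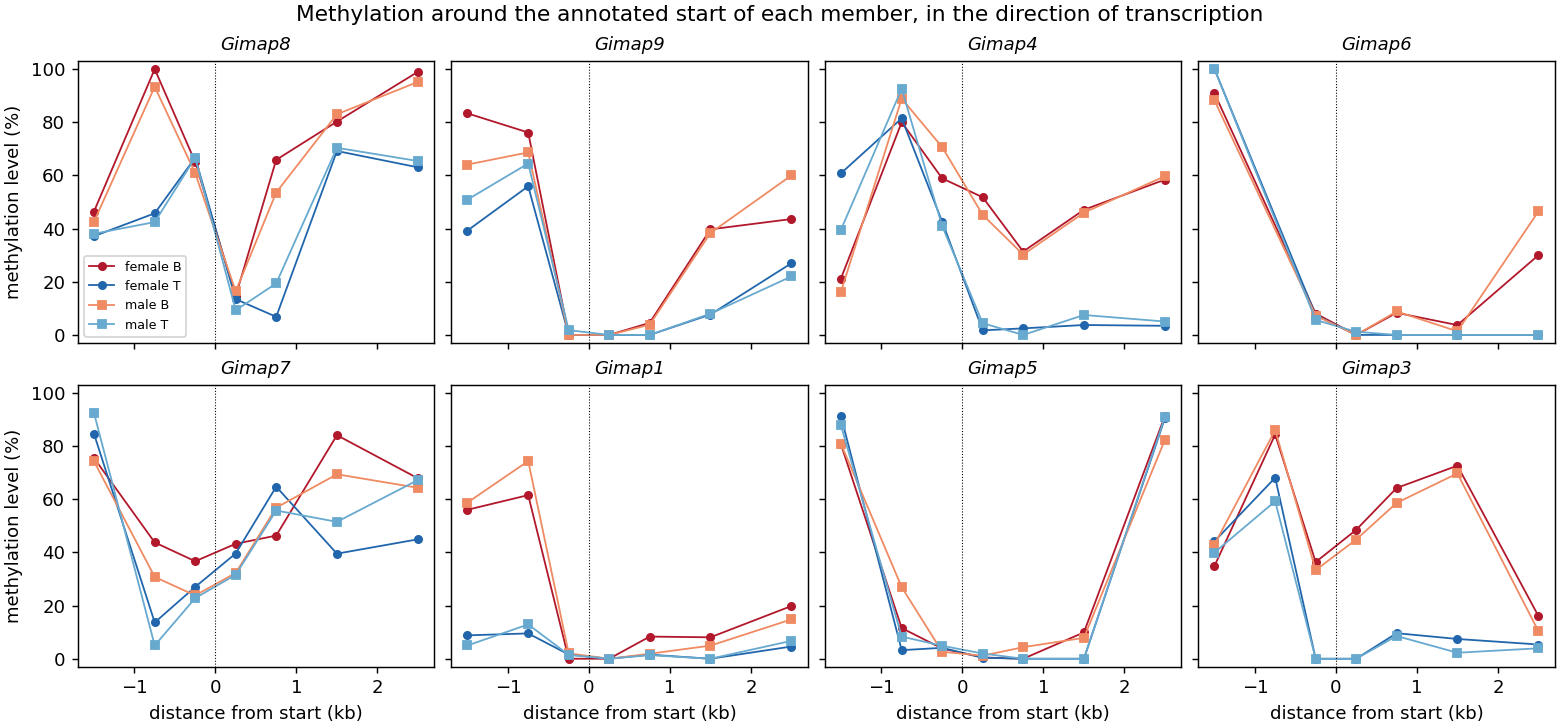
Each panel plots the methylation level (%) of 1 member in bins of distance from its annotated start (kb, positive in the direction of transcription) for the 4 files, with the start dotted. From 1 kb past the start, both T cell lines lie below both B cell lines in all members but Gimap7 and Gimap5. The share of all genes with such a separation in these bins was not computed. At Gimap6 all levels from 1 to 2 kb are 3.70% or less. The 500 bases after the starts of Gimap9, Gimap6, Gimap1 and Gimap5 are low in every file.

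Among the windows higher in B cells, 8 are described. They were ranked by whichever sex gave the smaller difference, so the separation of their files was fixed by that choice and carries no test. Of these, 7 lay in members and 1 just before a member. From the start of Gimap4 into its introns, 5 neighbouring windows from chr6:48684001-48685000 to chr6:48688001-48689000 were called, and the intronic one at chr6:48687001-48688000 measured 73.6% and 59.5% in B cells but 6.67% and 4.62% in T cells. At chr6:48688001-48689000, also intronic, B cells measured 93.5% and 96.9% and T cells 31.0% and 27.0%, over 3 CpGs. In Gimap3, the intronic window chr6:48769001-48770000 measured 70.7% and 71.0% in B cells but 10.1% and 3.95% in T cells. The coding exon of Gimap7, chr6:48723001-48724000 with 18 CpGs, measured 66.5% and 61.9% against 8.93% and 11.6%. Before Gimap1, the window chr6:48737001-48738000 lies outside the members but within the span of the read-through transcript Gm28053. There B cells measured 51.0% and 52.8% and T cells 4.46% and 0.962%. The Gimap6 window chr6:48704001-48705000, over an exon, measured 69.0% and 71.8% against 13.2% and 25%, over 3 CpGs. The remaining pair of the 8 described were chr6:48686001-48687000 in Gimap4, with 46.7% and 57.6% in B cells but 1.53% and 7.33% in T cells, and chr6:48770001-48771000 in Gimap3, with 57.7% and 51.0% in B cells but 7.26% and 6.94% in T cells.

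With the read-through Gm28053 not counted as a gene, 66 of the 128 windows tested and 13 of the 35 called lay between genes. So did 4 of the 5 windows lower in B cells, and all 5 were outside the member promoters. The largest, chr6:48712001-48713000, has its centre at -4275 bases from the start of Gimap6, which is before it, and measured 12.8% and 15.8% in B cells and 66.3% and 59.6% in T cells. That at chr6:48776001-48777000, with its centre at -5649 bases from the start of Gimap3, measured 46.3% and 42.1% in B cells and 85.7% and 92.6% in T cells. The other three, near the end of Gimap4 and before its start, differed by -20.1 to -26.3 points. Their calls were less stable, since each was lost under limma on log2 ratios (adjusted p = 0.0576 to 0.268).

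Runs of 4 or more CpGs, no more than 500 bases apart and each 30 points or more apart between the cell types in both sexes, numbered 10. Of these, 9 runs with 61 CpGs were higher in B cells and 1 run with 14 CpGs was lower. The longest had 15 CpGs within Gimap3, just past its start (chr6:48769655-48770740) and measured 69.4% and 63.3% in B cells but 9.03% and 6.35% in T cells. Its densest stretch is the first sequence printed above. The opposite run (chr6:48775891-48776339, with no base soft-masked) measured 10.7% and 9.24% in B cells and 79.4% and 87.9% in T cells. Of its 14 CpGs, 12 stand in the second sequence. The lack of soft-masking does not show that this sequence occurs only once in the genome, which was not tested. The run in the Gimap7 coding exon (chr6:48723635-48724015, 9 CpGs) measured 81.2% and 68.0% against 4.26% and 5.34%. In Gimap4, the run shown in the fourth sequence measured 63.2% and 68.5% against 1.12% and 2.68%. Since every run was chosen by its difference, these values describe it and carry no test.

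**Figure D4:**
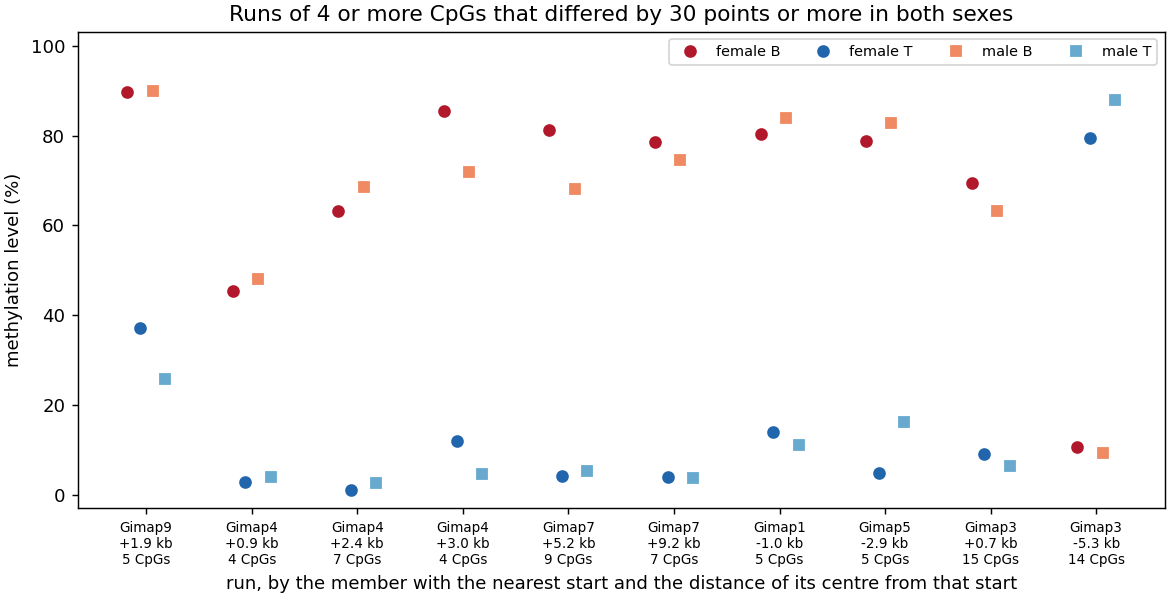
Each column is 1 of the 10 runs, in order along the chromosome, named by the member with the nearest start and the distance of its centre from that start, and each point is the methylation level (%) in 1 of the 4 files. In 9 columns both B cell points lie above both T cell points, and in the last, with 14 CpGs, they lie below.

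In sequence, the members' RefSeq promoters (250 bases before to 50 after a start, with Gimap8 having 2 such starts) held few CpGs, between 2 and 8, where the median of 32619 promoters was 7. An ETS motif written AGGAAG, read on both strands, occurred in 7 of the 9 member promoters and in 35.2% of all promoters. A RUNX motif written TGTGGT occurred in 3 of the 9 and in 16.6% of all. A STAT motif written TTCNNNGAA, which reads the same on both strands, occurred in 4 and in 8.34% of all, a TCF/LEF motif written CTTTGA in 2 and in 16.0%, and a GATA motif written AGATAA in 0 and in 11.2%. Each of the 4 stretches printed first holds the ETS motif and 3 of them hold the GATA motif, which 30.4% and 18.9% of 300-base regions on chromosome 6 contain. Letter matches describe the sequence and say nothing of which factors bind.

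No sex difference was called in the members. No promoter, gene body or window of the locus had an adjusted p under 0.05 for sex by the quasi-binomial fit with limma, where 8 of the 128 windows and 0 of the 8 promoters had an unadjusted p under 0.05, and no other tool was run for sex. Over the genome, the X chromosome included, a sex difference of 20 points or more passed the test at 489 of 51815 promoters. So it did at 31 of 30822 gene bodies and 1811 of 2018320 windows. How many of these lie on X was not counted, while the members lie on chromosome 6. Averaged over B and T cells, the largest difference between females and males in a member promoter was 5.15 points, at Gimap8. Within a cell type the sexes could lie farther apart. In B cells that promoter measured 68.5% in females and 58.8% in males, while T cells had 40.2% and 39.6%.

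Beyond the cluster, none of the 17 protein-coding genes that start within 250 kb of the locus had a called promoter, where 1.59% of all promoters were called. Of the 17, 4 had an unadjusted p under 0.05 (15.5% of all promoters did), all lower in B cells. Among these, Repin1 (-2.56 points, adjusted p = 0.0372 by the quasi-binomial fit) and Rarres2 (-8.45 points, adjusted p = 0.0293 by the same fit) passed the test but not the threshold. Another of the 4, Gm44965, has a promoter of 94 CpGs on nearly the same stretch as that of Repin1, with 91. These 2 are not separate results. Fisher's exact test in each sex and limma on log2 ratios likewise called 0 of the 17. The largest difference was 10.4 points, at Tmem176b, where B cells measured 36.5% and 41.2% and T cells 52.2% and 46.3%. On the near side of the locus, AI854703 measured 24.3% to 30.2% and Zfp775 6.09% to 7.05%, and on the far side Tmem176a measured 14.1% to 20.2%. Within the locus, Gimap1os, annotated on the opposite strand across Gimap1, measured 31.2% and 23.1% in B cells and 8.30% and 11.7% in T cells at its promoter (17.1 points, adjusted p = 0.00441 by the quasi-binomial fit), and was not called. The pseudogene Gm44262 and the non-coding genes Gm44226 and 4833403J16Rik, had uncalled promoters. The gene body of the read-through transcript Gm28053, which overlaps Gimap7, Gimap1 and part of Gimap5, measured 62.7% and 60.1% in B cells and 46.9% and 46.6% in T cells (14.7 points, adjusted p = 3.07e-05 by the same fit), so that it passed the test but not the threshold.

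Gene lists of related roles give a frame for these counts. Of 17 interferon-inducible GTPases tested, from the Gbp and Irg families, 1 promoter was higher in B cells (Gbp6, 66.7% and 78.6% against 39.6% and 32.0%) and 1 was lower (Ifi47, 8.75% and 8.87% against 40.2% and 53.3%). Without the male B or the male T file both calls were lost, and without either female file 1 was left. The median difference over this list was 6.79 points, and 9 of the 17 had an unadjusted p under 0.05. Igtp (9.60 points) and Irgm2 (9.08 points) passed the test but not the threshold. Their promoters, with 32 and 30 CpGs, are nearly the same stretch, so they are not separate results. Gbp4, Gbp8 and Gbp9 have the same 3 promoter CpGs and so the same values. None of 15 lymphocyte survival genes, such as the Bcl2 family and the Il7r pathway, was called, with 5 at an unadjusted p under 0.05, and none of 10 naive T cell maintenance genes was called, with 4 at that level, where 15.5% of all promoters had such a p. Fisher's exact test and limma also called 0 in both lists. Among the latter, Ccr7, a receptor that guides naive T cells to lymph nodes, measured 22.0% and 21.7% in B cells and 7.88% and 8.13% in T cells, and Tcf7, a T lineage transcription factor, measured 10.6% and 11.8% against 0.455% and 0.499%. Both passed the test but stayed under the threshold of 20 points. In the survival list, Bbc3, a pro-apoptotic factor, and Stat5a, a cytokine signalling factor, passed the test in the other direction, with differences of -13.6 and -15.1 points.

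Promoters of cell type markers moved with the labels. Of 12 T cell markers, 10 were called, all higher in B cells, such as Cd3e, a chain of the T cell receptor complex, at 83.4% and 86.6% in B cells but 3.45% and 1.87% in T cells. Of 10 B cell markers, 8 were called, all lower in B cells. Both CD8 markers were called as higher in B cells, with Cd8b1 at 38.5% to 40.6% in T cells. Of 5 natural killer cell markers, 1 (Nkg7) was called, as higher in B cells, and 0 of 8 myeloid markers was called, with 2 at an unadjusted p under 0.05 (15.5% of all promoters). The natural killer marker Gzma (12.9 points, adjusted p = 0.0393 by the quasi-binomial fit) and the myeloid marker Lyz2 (-19.3 points, adjusted p = 0.0121 by the same fit) passed the test but not the threshold. The part of other cells in the values of the Gimap genes was not tested.

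The promoters whose 4 levels came nearest to the median of the members (31.1%, 28.4%, 17.8% and 17.3% in female B, male B, female T and male T cells) were those of Oasl2, Car12, Sytl1, Coq8b and Tnfrsf8. Their root mean square distances from that median were 0.905 to 2.36 points over 4 files, and 1659 of 21073 genes lay within 10 points.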

How the data were processed

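Whole-genome bisulfite sequencing covered 8 samples in 4 groups, each group with 1 deposited file. The authors deposited, for every CpG, its methylation level as a fraction and its coverage as a count of reads with both strands merged. Every entry had 5 or more reads. The submitters' processing notes name Trim Galore, FastQC and Bismark 0.13.1 with the build mm10. Filters, duplicate removal, conversion rates and the handling of reads that fit several Gimap paralogs are not given in the sources used here. Cells were pooled over animals, and part of each sample was oxidised before bisulfite treatment, while the files used are named as plain bisulfite. Autosomal depth averaged 14.6 to 17.7 reads per CpG.

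Methylated reads were recovered as fraction times coverage, rounded, and the deposited fraction was within 0.00101 of whole reads divided by coverage in 100% of entries. CpGs with 5 or more reads in all 4 files were pooled into 1 kb windows, promoters (start with 1 kb to either side) and gene bodies (genes of 2 kb or more) with 3 or more CpGs, using GENCODE M21 genes of any class. A quasi-binomial model with terms for cell type and sex was fitted to all features. Its dispersion was squeezed with limma 3.58.1 in R 4.3.3, with the prior taken from features with 5 or more expected reads of each kind in every file, a choice made with results of these data known. F tests were adjusted by Benjamini-Hochberg over all features, with X apart for sex. For windows the prior degrees of freedom were infinite, so window p-values rest on an average dispersion of 1.31 and very small ones overstate certainty. A call needed an adjusted p under 0.05 and 20 percentage points. Scripts were tested on simulated data. Wilson intervals (95%) cover counting error only, as duplicates may remain.

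All 8 members were described, with up to 8 called windows per direction ranked by whichever sex differed less, runs of 4 or more CpGs at gaps of 500 bases or less with sequence for the 4 longest, neighbours within 250 kb (the nearest 2 per side), up to 4 called list genes per direction, and the 5 genes most alike. Genes of lists named beyond this were chosen after their values were seen. Members, lists and tests were chosen with earlier results of these data known. Alternatives were limma on log2 ratios (pseudocount 1), Fisher's exact test per sex, leaving out each file, and other thresholds, coverage minimums, priors and feature sizes. Fits with a file left out had no sex term. Promoter sequences are from RefSeq (GRCm38), where all 8 members matched by symbol.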

Additional observations from a re-analysis of the deposited data

Results flagged for a closer look

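Among the promoters and gene bodies of the 8 members, in 2 the difference between B and T cells had opposite signs in females and males. At the Gimap7 promoter it was -8.52 points in females and 2.88 in males, which are -11.4 points apart. At the Gimap5 gene body it was 2.78 points in females and -1.77 in males, which are 4.55 points apart. Neither difference between the sexes was tested, as each sex had 1 file per cell type.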

How the results depend on the processing

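Individual samples could not be paired between the cell types, because each group had 1 deposited file. The replicate numbers in the titles also differ between the groups. B and T cell files were matched by sex alone. Of 374 differences of members and described windows under an alternative, 332 kept their direction and stayed called or uncalled. Results uncalled both times are among these. A change of threshold, test, prior, sex term or gene class left the difference itself as it was, so its direction could not turn there. For means over CpGs the adjusted p-values of the main fit were kept. The 3 promoter calls became 1 with a threshold of 30 points and 0 with 250 bases before to 50 after a start, and 1 to 3 with a file left out (1 without the male T file). The 3 body calls became 6 with a threshold of 10 points and 0 with limma, and stayed at 3 with any file left out. The 35 window calls became 43 with a threshold of 10 points, 22 with a threshold of 30 points and 21 with limma. Windows of 2000 bases gave 20 calls, but fewer such windows fit in the locus, so that count cannot be set against 35. The locus difference of 8.81 points became 11.9 without the 10 kb flanks and 7.34 with flanks of 25 kb, and was 7.88 to 9.74 with a file left out. The 2 interferon-inducible GTPase calls became 5 with limma, 0 with the shortest promoters and 0 to 1 with a file left out. The survival and maintenance lists each gave 2 calls with a threshold of 10 points, and the survival list 1 with 500 bases to either side. Signs turned in uncalled results and in Gimap8: with 500 bases to either side, promoter differences were -1.73 (Gimap8), -0.61 (Gimap9), 4.14 (Gimap7), -0.152 (Gimap1) and -0.842 (Gimap5), and with the shortest promoters -0.498 (Gimap1). With 10 or more reads per CpG the Gimap6 promoter gave -1.16. Leaving out the female B file gave -0.747 (Gimap9 promoter) and -2.76 (Gimap5 body), the female T file 1.76 (Gimap7 promoter) and -0.57 (Gimap5 promoter), the male B file -0.477 (Gimap5 promoter) and the male T file -0.489 (Gimap5 body), in ranges that reached 6.84 (Gimap9 promoter), -7.40 (Gimap7 promoter), 1.26 (Gimap5 promoter) and 3.78 (Gimap5 body). The cause was not tested. Restricting to protein-coding genes, added after the data were seen, left 3 promoter and 3 body calls.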
